A study of Bos taurus with 5 samples.

Results

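Cytoplasmic dynein is the motor that walks toward the minus ends of microtubules, and dynactin is the large complex that joins it to its cargo and lengthens its runs. A dynein motor is built from heavy chains, which hydrolyse ATP, and from intermediate, light intermediate and light chains, which hold cargo and dynactin. In bovine zygotes dynein and dynactin draw the egg and sperm pronuclei together along the microtubules of the sperm aster, and in every cleavage they focus spindle poles and position the spindle. The genes described here are 10 subunits named by symbol, the dynactin subunits DCTN1 to DCTN6 and the dynein chains DYNC1H1, DYNLL1, DYNLRB1 and DYNLT1. Of the 10, 9 matched a row of the 27607 genes in the deposited table. DYNLT1, a light chain, matched no gene name and was not analysed here.

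The study compared the transcriptomes of cleavage-stage Bos taurus embryos, grown in vitro, between classes of sire performance. Each of the 5 RNA libraries came from a pool of 100 embryos, 3 pools sired by high-performing and 2 by low-performing bulls. Labels put all pools at the 4-cell stage, and the series text at 2 to 4 cells. The labels name recombinant Wnt5A in the treatment protocol of all 5 pools, give no dose, and do not define performance. Nothing in them says that pools came from separate sires or cultures, so errors and p-values reflect only how these pools differ from one another, and that may be technical.

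Values are RPKM, reads per kilobase of gene with every library scaled to the same size, as deposited by the authors. Reads in genes ranged from 67248924 in high-performing pool 2 to 113100809 in high-performing pool 1. Low-performing pool 2 stood apart, with a trimmed-mean scaling factor of 0.95 beside 0.999 to 1.02 in the other pools. Fold changes without it are given for part of the genes. Markers of the oocyte and early embryo were all above the filter, 10 of 10. Their summed level was 11114 to 15131 RPKM in the high-performing and 18047 to 23438 RPKM in the low-performing pools. Most of that sum was BTG4, a gene of 669 bases. It had 9357, 6021 and 7752 RPKM in high-performing pools 1, 2 and 3, and 11816 and 16943 RPKM in low-performing pools 1 and 2. Of the sperm markers, PRM2 and TNP1 were at 0 in every pool, and 2 of 10 passed the filter. The sum was 12.4 to 14.0 RPKM in the high-performing and 10.5 to 13.4 RPKM in the low-performing pools, most of it ODF2. Cumulus and granulosa markers passed for 6 of 10, with a sum of 190 to 208 RPKM in the high-performing and 186 to 189 RPKM in the low-performing pools, most of it STAR. Those under the filter were TNFAIP6, FSHR, AMH and CYP19A1, at most 1.05, 0.07, 0.16 and 0.43 RPKM in any pool. The part of these lists in the results below was not tested. In pools of whole embryos, fewer cells of a type and less RNA per cell cannot be told apart.

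All 9 matched subunits were detected in every pool, and their mRNA levels per length spanned a wide range. DYNLL1, the LC8 light chain, which many proteins outside dynein also bind, had the highest mean over the 5 pools at 750 RPKM, and DCTN2, the dynactin shoulder subunit dynamitin, had the lowest at 2.85 RPKM. DYNLL1 lay above 99.6% of the 12448 genes that passed the filter (2 or more pools with an RPKM of 1 or more), while DYNC1H1, the heavy chain and motor itself, lay above 25.0%. By mean level the order was DYNLL1, DCTN6, DYNLRB1, DCTN4, DCTN3, DCTN5, DCTN1, DYNC1H1 and DCTN2. DYNLL1 ranked 1, DCTN5 ranked 6, DCTN1 ranked 7, DYNC1H1 ranked 8 and DCTN2 ranked 9 in each of the 5 pools. The other 4 subunits traded places among ranks 2 to 5. DYNLRB1 was below DCTN4 in all 3 high-performing pools and above it in both low-performing pools. The ranges over the 5 pools did not overlap between DYNLL1 and DCTN6, between DCTN5 and DCTN1, or between DCTN1 and DYNC1H1, and they overlapped between the other neighbours in the order.

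**Figure D1:**
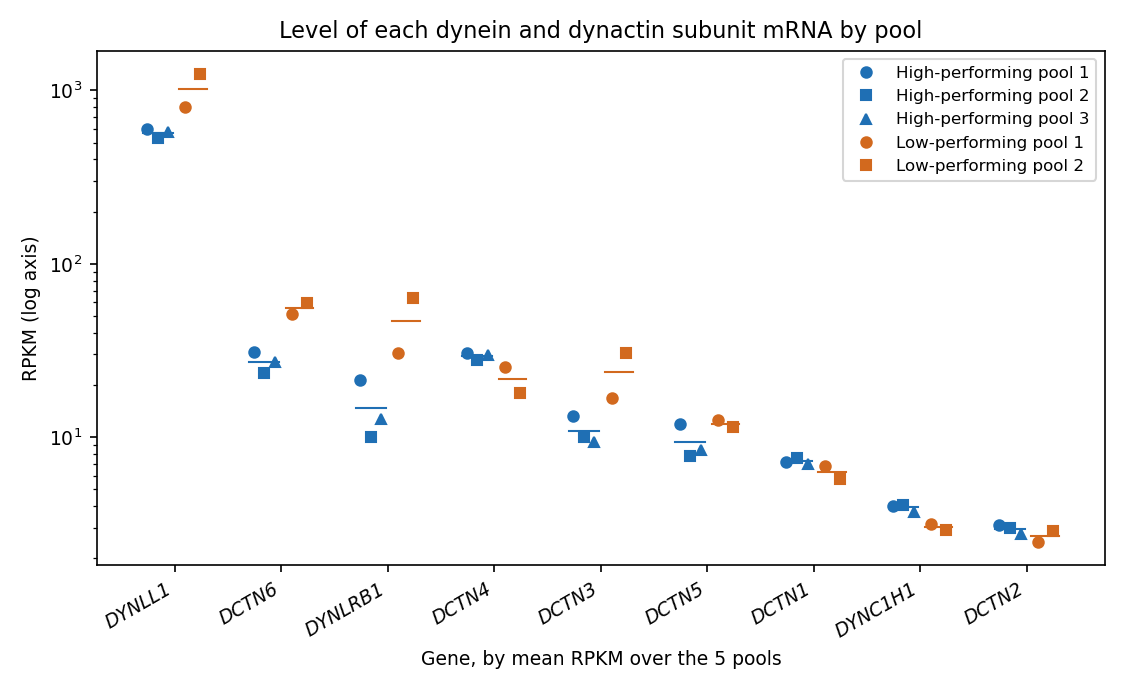
RPKM (log axis) of the 9 dynein and dynactin subunit mRNAs in each of the 5 pools, ordered by mean level; points are pools and short lines are group means. DYNLL1 lies between 533 and 1242 RPKM and DCTN2 between 2.50 and 3.13 RPKM, and DYNLRB1 has the widest spread, from 10.04 to 63.6 RPKM.

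The 10 symbols were chosen by name, in a set proposed with the fold changes and RPKM values of these sire groups already known. The differences between the sire groups are therefore given as a description of the 9 subunits, and the counts of calls printed beside them come from the values used in that choice and support nothing. In those differences the subunits with the shortest genes, DYNLRB1, DCTN3, DCTN6 and DYNLL1, had higher levels in both low-performing pools than in any high-performing pool. DCTN4, DCTN1 and DYNC1H1, which have the longest genes of the 9, had lower levels in both. DCTN5 and DCTN2 overlapped between the groups. Pools did not overlap for 7 of the 9 subunits, and they did not overlap for 58.7% of all 12448 genes tested. Low-performing pools were both higher for 54.5% of genes of up to 700 bases, 62.8% of 701 to 1000 and 56.4% of 1001 to 1200. These classes hold the 4 short subunits. In the class of DCTN4, 3001 to 4000 bases, both were lower for 41.3% of genes. For the classes of DCTN1 and DYNC1H1 that share was 55.0% and 66.3%. Fold changes below come from limma fitted to all genes tested, on the log2(RPKM + 1) scale, and are positive for higher levels in the low-performing group. Over the 9 subunits the median was 0.34, beside -0.03 over all genes tested. In limma 0 of the 9 subunits had an adjusted p under 0.05, as did 0.0% of all genes tested, and limma voom on recovered reads also gave 0. Without adjustment, 5 of the 9 and 34.9% of all genes had a p under 0.05. Without low-performing pool 1, which leaves a single pool in that group, limma gave an adjusted p under 0.05 for 5 of the 9 (the 4 short subunits and DCTN4) and for 43.7% of all genes.

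Among the dynein chains, the heavy chain gene DYNC1H1 (ENSBTAG00000016598, chromosome 21, positions 66850740 to 66911778 on the plus strand of ARS-UCD1.2, with 78 merged exon blocks) had 4.03, 4.05 and 3.72 RPKM in high-performing pools 1, 2 and 3. It had 3.16 and 2.94 RPKM in low-performing pools 1 and 2. The low-performing pools were both below the others, with a log2 fold change of -0.29 ± 0.12 (SE). The spread inside each group was small, and the highest high-performing pool was 1.09 times the lowest.

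DYNLRB1 encodes a roadblock light chain, which docks on the intermediate chains. Its gene (ENSBTAG00000006134, chromosome 13, positions 63888186 to 63905671 on the plus strand, 4 merged exon blocks) has 644 bases in the deposited table, the shortest of the 9. Its level was 21.4, 10.04 and 12.7 RPKM in high-performing pools 1, 2 and 3, and 30.4 and 63.6 RPKM in low-performing pools 1 and 2. Low-performing pool 2 was 2.09 times pool 1, and high-performing pool 1 was 1.88 times the mean of pools 2 and 3, so this subunit varied widely inside both groups. The log2 fold change was 1.59 ± 0.37 (SE), and the ratio of the group means was 3.20. Without low-performing pool 2 it was 1.07, and without low-performing pool 1 it was 2.11.

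DYNLL1 (ENSBTAG00000024605, chromosome 17, positions 62791053 to 62793922 on the plus strand, 3 merged exon blocks) had 597, 533 and 576 RPKM in high-performing pools 1, 2 and 3. It had 802 and 1242 RPKM in low-performing pools 1 and 2. The high-performing pools lay close together, and the low-performing pools were 1.55-fold apart. The log2 fold change was 0.81 ± 0.21 (SE), 0.50 without low-performing pool 2, and 0.46 with quantile normalization. DYNLL1 and DYNLL2 encode closely related LC8 chains, and DYNLL2 had 223, 237 and 263 RPKM in the high-performing and 251 and 252 RPKM in the low-performing pools, an overlapping range. DYNLL1 therefore made up 68.7% to 72.8% of the LC8 mRNA per length in the high-performing pools, and 76.1% and 83.1% in the low-performing pools. The genes differ in length, at 1107 bases for DYNLL1 and 2423 for DYNLL2. With the trend over gene length (described with the length classes) removed, their log2 fold changes were 0.48 and 0.11. The other roadblock chain, DYNLRB2, was a minor form, since DYNLRB1 made up 95.5% to 97.4% of the pair in every pool.

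The shoulder of dynactin, which holds the complex to dynein, is formed by DCTN1, DCTN2 and DCTN3. DCTN1 encodes the large Glued subunit that binds microtubules and the dynein intermediate chain (ENSBTAG00000004887, chromosome 11, positions 10238630 to 10269100 on the plus strand, 30 merged exon blocks). It had 7.21, 7.61 and 7.02 RPKM in high-performing pools 1, 2 and 3, and 6.81 and 5.74 RPKM in low-performing pools 1 and 2. The groups did not overlap, but low-performing pool 1 was close to high-performing pool 3, and the log2 fold change of -0.19 ± 0.13 (SE) was -0.08 without low-performing pool 2.

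DCTN2, or dynamitin, is known for taking dynactin apart when it is present in excess (ENSBTAG00000010624, chromosome 5, positions 55932944 to 55946889 on the plus strand, 15 merged exon blocks). Its level was 3.13, 2.99 and 2.75 RPKM in high-performing pools 1, 2 and 3, and 2.50 and 2.88 RPKM in low-performing pools 1 and 2. The groups overlapped, and the log2 fold change was -0.10 ± 0.13 (SE). It rested on the fewest reads in 4 of the 5 pools, 442 to 777 in a pool, for a counting error of 3.59% to 4.76%.

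DCTN3, the small shoulder subunit (ENSBTAG00000018883, chromosome 8, positions 75981882 to 75990372 on the minus strand, 7 merged exon blocks), had 13.3, 10.1 and 9.43 RPKM in high-performing pools 1, 2 and 3. It had 16.9 and 30.7 RPKM in low-performing pools 1 and 2. Both low-performing pools were above the others, and pool 2 was 1.82 times pool 1. The log2 fold change was 1.01 ± 0.26 (SE), and without low-performing pool 2 it was 0.60.

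The pointed end of dynactin, where cargo and adaptors make contact, holds DCTN4, DCTN5 and DCTN6. DCTN6 (ENSBTAG00000000744, chromosome 27, positions 26320484 to 26342212 on the plus strand, 7 merged exon blocks) had 31.1, 23.4 and 27.0 RPKM in high-performing pools 1, 2 and 3, and 51.2 and 59.8 RPKM in low-performing pools 1 and 2. The low-performing pools were both well above the others and lay close to each other, 1.17-fold apart. The log2 fold change of 1.01 ± 0.16 (SE) was 0.90 without low-performing pool 2 and 1.12 without low-performing pool 1. Of the 4 subunits higher in the low-performing pools, DCTN6 had the smallest SE and the smallest difference between the low-performing pools.

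DCTN5, which pairs with DCTN6 in the complex (ENSBTAG00000006410, chromosome 25, positions 21293320 to 21322278 on the plus strand, 7 merged exon blocks), had 11.9, 7.81 and 8.41 RPKM in high-performing pools 1, 2 and 3, and 12.5 and 11.4 RPKM in low-performing pools 1 and 2. High-performing pool 1 lay inside the low-performing range, and the log2 fold change was 0.34 ± 0.19 (SE). DCTN4 (ENSBTAG00000015625, chromosome 7, positions 62073639 to 62106751 on the minus strand, 14 merged exon blocks) had 30.7, 27.7 and 29.9 RPKM in high-performing pools 1, 2 and 3. It had 25.3 and 18.1 RPKM in low-performing pools 1 and 2, both below the others. Its log2 fold change, -0.44 ± 0.17 (SE), was the lowest of the 9, and it was -0.21 without low-performing pool 2.

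The authors' deposited table gives an FDR under 0.05 for 4 of the 9 subunits, all with the low-performing pools higher. In that direction it does so for 5.51% of its 27607 genes, and for 1375 of the 12448 genes tested here. In the authors' deposited table DYNLRB1 has a log2 fold change of 1.79 and an FDR of 1.2e-05, and DCTN6 has 1.03 and 1.3e-05. For DYNLL1 the authors' deposited table gives 0.85 with an FDR of 0.000384, and for DCTN3 1.12 with an FDR of 0.00104. None of the 9 has an FDR under 0.05 with the low-performing pools lower in the authors' deposited table, where 2.45% of genes do. Of the 12448 genes tested here, 631 do.

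**Figure D2:**
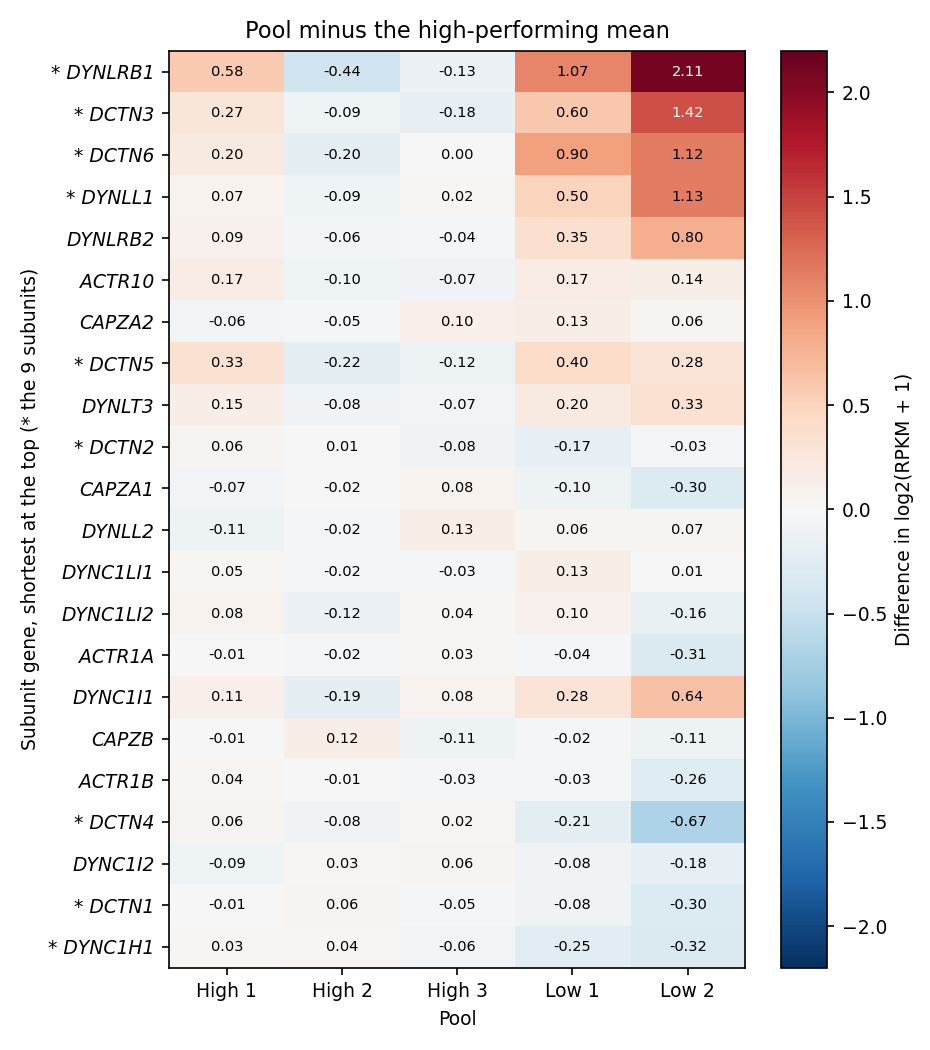
Difference of each pool from the mean of the 3 high-performing pools in log2(RPKM + 1), for the 22 dynein and dynactin subunit genes with a row in the table, shortest gene at the top; an asterisk marks the 9 subunits. Values run from 2.11 for DYNLRB1 to -0.67 for DCTN4, both in low-performing pool 2, and the 4 shortest genes run from 0.50 to 2.11 in the low-performing pools.

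Pools of the same group also differed from one another. DYNLRB1 and DCTN3 were the subunits with the widest gap between the low-performing pools, and both were also higher in high-performing pool 1 than in pools 2 and 3. High-performing pool 1, which had the most reads, was 1.47 times the mean of high-performing pools 2 and 3 for DCTN5, 1.36 times for DCTN3 and 1.23 times for DCTN6. For DCTN1, DYNC1H1, DCTN4, DYNLL1 and DCTN2 the same ratio lay between 0.99 and 1.09. Between the low-performing pools, pool 2 was higher for DYNLRB1, DCTN3, DYNLL1, DCTN6 and DCTN2, and lower for DCTN4 (0.71 times pool 1), DCTN1 (0.84 times), DCTN5 (0.91 times) and DYNC1H1 (0.93 times). Counting error was at most 4.79% of the reads for any of the 9 subunits in any pool. No other gene of the table overlapped the 9, apart from a U2 RNA gene on the opposite strand within DCTN4, at 0 to 0.14 RPKM.

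Ratios within a pool show how the mRNAs of subunits stood to one another per length, and no protein was measured. Scaling between pools drops out of such a ratio, but a difference that moves with gene length does not, and most of these ratios set a short gene over a longer one. The ratio of DYNLRB1 to DYNC1H1 was 5.30, 2.48 and 3.41 in high-performing pools 1, 2 and 3, and 9.64 and 21.7 in low-performing pools 1 and 2. For DYNLL1 to DYNC1H1 the ratio averaged 145 ± 11.98 (SD, n = 3) across high-performing pools and 339 ± 119.5 (SD, n = 2) across low-performing ones. The larger chains also separated the groups by this measure. DYNC1I2 to DYNC1H1 was 60.3, 64.9 and 72.6 in high-performing pools 1, 2 and 3, and 77.6 and 77.8 in low-performing pools 1 and 2. DYNC1LI1 to DYNC1H1 was 30.8, 29.1 and 31.6 in high-performing pools 1, 2 and 3, and 41.4 and 40.9 in low-performing pools 1 and 2. All 4 of these ratios share DYNC1H1, which was lower in the low-performing pools. On the log2 scale the fold change of DYNLRB1 exceeded that of DYNC1H1 by 1.87, and by 0.98 with the trend over gene length (described with the length classes) removed. For DYNLL1 the excess over DYNC1H1 was 1.10, and 0.40 with that trend removed, for DYNC1LI1 0.35 and 0.048, and for DYNC1I2 0.16 and 0.0022.

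In the dynactin shoulder the ratio of DCTN3 to DCTN1 was 1.84, 1.32 and 1.34 in high-performing pools 1, 2 and 3, and 2.48 and 5.35 in low-performing pools 1 and 2. The ratio of DCTN2 to DCTN1 did not separate the groups, at 0.41 ± 0.02 (SD, n = 3) and 0.43 ± 0.09 (SD, n = 2). At the pointed end the ratio of DCTN6 to DCTN4 was 1.01, 0.84 and 0.90 in high-performing pools 1, 2 and 3, and 2.03 and 3.31 in low-performing pools 1 and 2. DCTN6 to DCTN5 averaged 2.94 ± 0.30 (SD, n = 3) and 4.66 ± 0.81 (SD, n = 2), also without overlap. ACTR1A, which encodes the actin-related protein of the dynactin filament, kept its ratio to DCTN1 between 3.37 and 3.77 in all 5 pools. The log2 fold change of DCTN3 exceeded that of DCTN1 by 0.52 with the length trend removed, less than without its removal. For DCTN6 the excess over DCTN4 was 1.45, and 0.92 with the trend removed.

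**Figure D3:**
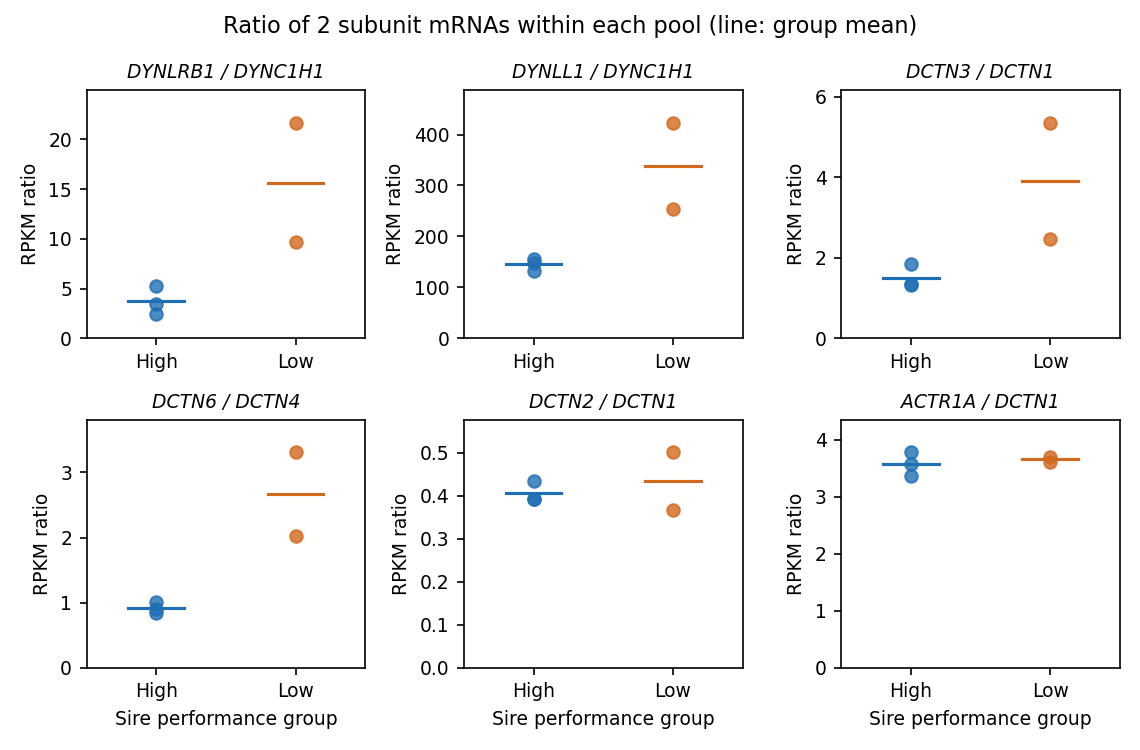
Ratio of the RPKM of 2 subunit mRNAs within each pool, for 6 pairs, by sire performance group (points are pools, lines are group means, each axis starts at 0). DYNLRB1 to DYNC1H1, DYNLL1 to DYNC1H1, DCTN3 to DCTN1 and DCTN6 to DCTN4 do not overlap between the groups, while DCTN2 to DCTN1 and ACTR1A to DCTN1 overlap.

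Of the 7 other subunits of cytoplasmic dynein, 6 passed the filter, with a median log2 fold change of 0.07. The one under the filter, DYNLRB2, had 0.64, 0.48 and 0.50 RPKM in high-performing pools 1, 2 and 3, and 0.96 and 1.67 RPKM in low-performing pools 1 and 2. Both low-performing pools were above the others, and the authors' deposited table gives DYNLRB2 a log2 fold change of 1.28 and an FDR of 0.0127. None of the 6 passed limma adjusted over all genes. Of them 1, DYNC1I1, had an unadjusted p under 0.05, beside 34.9% of all genes tested. The intermediate chain DYNC1I2 had 243, 263 and 270 RPKM in high-performing pools 1, 2 and 3, and 245 and 228 RPKM in low-performing pools 1 and 2, an overlapping range. Of the light intermediate chains, which bind adaptors, DYNC1LI1 stood at 0.07 ± 0.13 (SE) and DYNC1LI2 at -0.03 ± 0.14 (SE) on the log2 scale. DYNC1LI1 turned to -0.05 with quantile normalization, where DYNLL2, at 0.06 ± 0.14 (SE), turned to -0.15. DYNC1I1, the other intermediate chain, had 37.5, 30.1 and 36.6 RPKM in high-performing pools 1, 2 and 3, and 42.1 and 54.3 RPKM in low-performing pools 1 and 2. Its log2 fold change was 0.46 ± 0.17 (SE), with an adjusted p of 0.109 in limma, and it was 0.28 without low-performing pool 2. DYNLT3, a light chain of the family of DYNLT1, stood at 0.27 ± 0.14 (SE).

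Of the other 6 dynactin subunits, all passed the filter, with a median log2 fold change of -0.11 that was 0.016 with the trend over gene length removed. None passed limma adjusted over all genes, and 0 had an unadjusted p under 0.05, beside 34.9% of all genes tested. ACTR1A stood at -0.18 ± 0.13 (SE), ACTR1B at -0.15 ± 0.12 (SE), and ACTR10, which caps the pointed end, at 0.15 ± 0.14 (SE). The capping protein genes CAPZA1, CAPZA2 and CAPZB stood at -0.20 ± 0.14 (SE), 0.10 ± 0.13 (SE) and -0.07 ± 0.13 (SE). CAPZA1 was the most abundant dynactin mRNA, at 178 to 232 RPKM over the 5 pools. Of all 21 subunits of the 2 complexes that passed the filter, 6 had both low-performing pools above all high-performing ones and 6 had both below, where 29.4% and 29.3% of all genes tested did.

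Of 29 tested genes that load, activate or anchor dynein, 24 had a log2 fold change below 0, as did 6634 of all 12448 genes. None passed limma adjusted over all genes, 10 had an unadjusted p under 0.05, beside 34.9% of all genes, and in 16 both low-performing pools lay below the others, beside 29.3% of all genes. The median length of the 29 was 3840 bases. Both low-performing pools lay below the others in 41.3% of all genes tested of 3001 to 4000 bases. That share was 26.9% for 2001 to 3000 bases and 55.0% for 4001 to 6000. Of the genes of 3001 to 4000 bases, 26.1% had a log2 fold change above 0. The median log2 fold change of the 29 was -0.30, which was -0.12 with the trend over gene length removed and -0.16 without low-performing pool 2. Without low-performing pool 1, 14 of the 29 had an adjusted p under 0.05 in limma, beside 43.7% of all genes. For the 6 regulators, with a median length of 5152 bases, the median log2 fold change was -0.55. That median was -0.43 with the length trend removed and -0.17 without low-performing pool 2. In 4 of the 6 both low-performing pools lay below all high-performing ones. PAFAH1B1, or LIS1, which helps dynein out of its self-inhibited form, had 13.02, 15.1 and 15.2 RPKM in high-performing pools 1, 2 and 3, and 10.7 and 5.46 RPKM in low-performing pools 1 and 2. Its log2 fold change was -0.83 ± 0.24 (SE), with an adjusted p of 0.0853 in limma, and it was -0.40 without low-performing pool 2. MAPRE1, or EB1, which tracks growing microtubule ends, stood at -0.84 ± 0.23 (SE), and at -0.43 without low-performing pool 2. CLIP1, which recruits dynactin to those ends, stood at -0.67 ± 0.23 (SE), and at -0.27 without that pool. MAPRE3, of the family of MAPRE1, stood at -0.43 ± 0.27 (SE) and turned to 0.05 without it. The remaining regulators, NDEL1 and NDE1, stood at 0.17 ± 0.14 (SE) and -0.10 ± 0.12 (SE).

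Of 17 activating adaptors, which join dynein to dynactin on a cargo, 13 passed the filter, with a median log2 fold change of -0.24, and 11 of them lay below 0. NIN, the centrosomal protein ninein, stood at -0.55 ± 0.20 (SE), HOOK1 at -0.54 ± 0.17 (SE), TRAK1, a mitochondrial adaptor, at -0.49 ± 0.18 (SE) and BICDL1 at -0.38 ± 0.15 (SE). Without low-performing pool 2 these values were -0.30 for NIN, -0.29 for HOOK1, -0.25 for TRAK1 and -0.23 for BICDL1. With the length trend removed they were -0.20 for NIN, -0.34 for HOOK1, -0.17 for TRAK1 and -0.48 for BICDL1. The 10 proteins that hold dynein at the cortex, nuclear envelope or kinetochore had a median of -0.29. CENPF, which places dynein on the nuclear envelope before mitosis, had 203, 220 and 190 RPKM in high-performing pools 1, 2 and 3, and 145 and 120 RPKM in low-performing pools 1 and 2. Its log2 fold change was -0.63 ± 0.15 (SE), with an adjusted p of 0.0829 in limma, and it was -0.49 without low-performing pool 2. With the length trend removed it was -0.26, for a gene of 10722 bases. GNAI2, a G protein of the cortical complex, stood at -0.77 ± 0.23 (SE), KNTC1 of the kinetochore at -0.59 ± 0.18 (SE) and ZW10, its partner, at -0.32 ± 0.18 (SE). Without low-performing pool 2 these values were -0.38 for GNAI2, -0.31 for KNTC1 and -0.095 for ZW10, and with the length trend removed KNTC1 stood at -0.24. Of the 29 genes, 4 have an FDR under 0.05 in the authors' deposited table, PAFAH1B1, MAPRE1, CENPF and KNTC1, all with the low-performing pools lower. In that direction 2.45% of the genes of that table do, and 631 of the 12448 genes tested here.

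The dyneins of cilia are separate motors. Of their DNAH heavy chain genes listed, DNAH11 had a mean of 11.7 RPKM and DNAH17 2.36 RPKM, beside 3.58 RPKM for DYNC1H1. The other DNAH genes were under 0.39 RPKM in every pool. DYNC2LI1 had a mean of 16.7 RPKM, beside 122 and 59.6 RPKM for DYNC1LI1 and DYNC1LI2 of cytoplasmic dynein. Of 5 subunits of the intraflagellar transport dynein, 4 matched, and in all 4 both low-performing pools lay above the 3 high-performing ones, beside 29.4% of all genes tested. DYNLT2B, a light chain of that motor with a gene of 1028 bases, had 9.64, 6.21 and 6.76 RPKM in high-performing pools 1, 2 and 3, and 14.5 and 24.5 RPKM in low-performing pools 1 and 2. Its log2 fold change was 1.24 ± 0.25 (SE), with an adjusted p of 0.0829 in limma. It was 0.88 without low-performing pool 2, and also 0.88 with the length trend removed. DYNC2LI1, DYNC2I1 and DYNC2I2 of the same motor stood at 0.36 ± 0.16 (SE), 0.25 ± 0.15 (SE) and 0.19 ± 0.13 (SE). Of 20 axonemal dynein genes, which serve motile cilia and sperm tails, 6 passed the filter. DNAL4 had 20.2, 21.0 and 19.1 RPKM in high-performing pools 1, 2 and 3, and 15.97 and 7.06 RPKM in low-performing pools 1 and 2, a log2 fold change of -0.85 ± 0.28 (SE) that was -0.32 without low-performing pool 2. DNAH11, DNALI1 and DNAI1 stood at -0.25 ± 0.15 (SE), -0.22 ± 0.17 (SE) and 0.19 ± 0.12 (SE).

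Gene length moved with the difference between sire groups across the whole table. Among all genes tested, the median log2 fold change was 0.47 for the 1043 genes of up to 700 bases, 0.50 for those of 701 to 1000 bases and 0.34 for those of 1001 to 1200 bases. It was 0.10 for genes of 1501 to 2000 bases, -0.05 for 2001 to 3000, -0.16 for 3001 to 4000, -0.26 for 4001 to 6000, and -0.36 for the 98 genes over 10000 bases. DYNLRB1 (644 bases), DCTN3 (874 bases), DCTN6 (1077 bases) and DYNLL1 (1107 bases) all lay above the median of their length class. DCTN1 (4840 bases) and DYNC1H1 (14466 bases) lay nearer 0 than the median of theirs, and DCTN4 (3886 bases) lay below its own. DCTN5 (1876 bases), at 0.34, lay above the median of its class, and DCTN2 (2198 bases), at -0.10, lay below that of its class.

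With a smooth trend over gene length removed from each pool, the 4 short subunits kept values above 0, at 1.06 for DYNLRB1, 0.67 for DCTN6, 0.58 for DCTN3 and 0.48 for DYNLL1. DCTN4 stood at -0.25 ± 0.12 (SE). DCTN1 and DYNC1H1 turned above 0, to 0.06 ± 0.11 (SE) and 0.08 ± 0.12 (SE), each by less than its SE. The opposite direction of the long subunits DCTN1 and DYNC1H1 therefore did not outlast that adjustment, and among the 9 subunits only DCTN4 and DCTN2 (-0.10) were then below 0. The part of gene length in these differences was not tested beyond that adjustment.

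**Figure D4:**
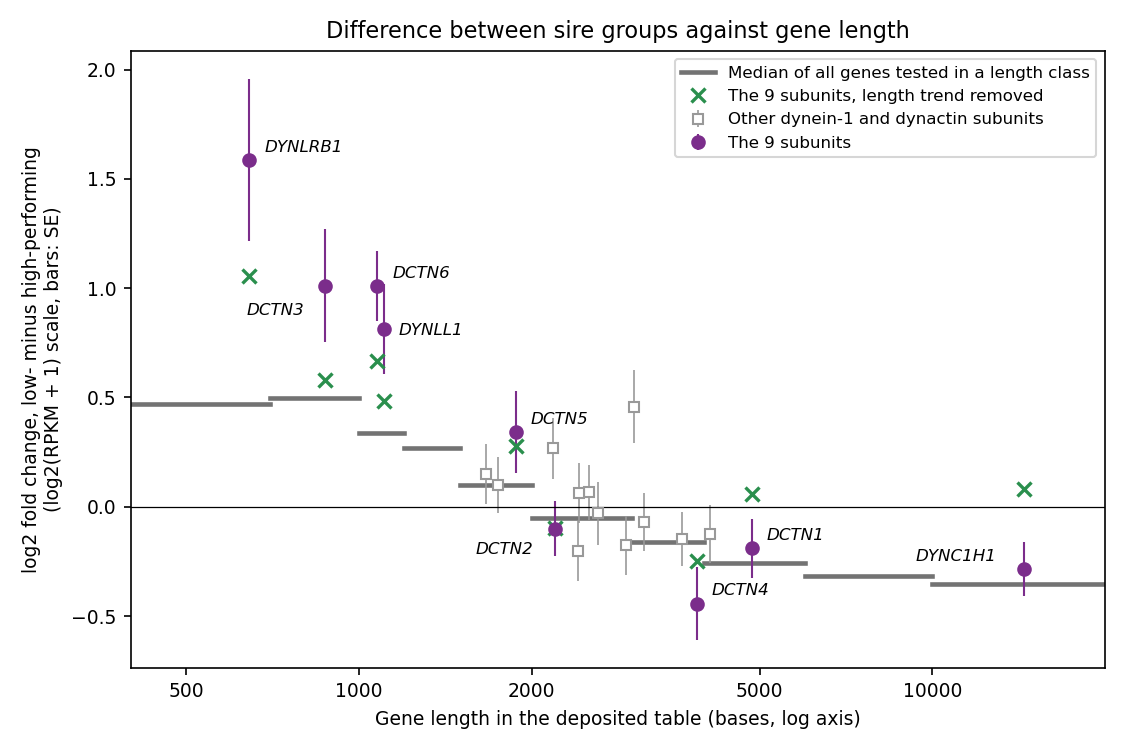
log2 fold change between sire groups (above 0 where low-performing pools are higher) on the log2(RPKM + 1) scale, with SE bars, against gene length in bases (log axis); circles are the 9 subunits, squares the 12 other dynein and dynactin subunits tested, crosses the 9 subunits with the length trend removed, and grey lines the median of all genes tested in a length class (the first and last classes run past the axis). DYNLRB1, DCTN3, DCTN6 and DYNLL1 lie above the grey lines at 0.81 to 1.59. DYNC1H1 and DCTN1 cross 0 once the trend is removed, each by less than its SE.

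Patterns over the pools were compared by the root mean square difference between genes, each centred on its own mean log2(RPKM + 1) over the 5 pools. Among 11089 named genes, the nearest to DYNLRB1, the subunit with the highest fold change, were NDUFS5 (0.05), NDUFB3 (0.06) and SMIM11A (0.06), beside a median of 0.94 over all of them. SMIM11A, for example, had 54.8, 27.0 and 35.5 RPKM in high-performing pools 1, 2 and 3, and 80.8 and 152 RPKM in low-performing pools 1 and 2. Among the 9 subunits the nearest to DYNLRB1 was DCTN3, at 0.36. For DCTN4, the subunit with the lowest fold change, the nearest genes were ZNF518A, SLF2 and NDFIP2 (0.02 each), beside a median of 0.26, and the nearest subunits were DYNC1H1 and DCTN1, at 0.16 and 0.17.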

How the data were processed

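The authors deposited 1 table of 27607 Ensembl genes with position, length, symbol and RPKM per library. The submitters' processing notes name the build ARS-UCD1.2 and the tools edgeR, featureCounts and FastQC, with aligner, versions and strand setting not given in the sources used here. Also deposited by the authors were a log2 fold change, a mean log2 CPM, a likelihood ratio score, and p-values with an FDR. In sign, theirs is above 0 for genes higher in the low-performing group.

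Members were matched by gene name. The members and lists were chosen with earlier results of these data known. RPKM times length gave whole reads for 100% of values within a tolerance of 1e-06, from which depth and counting error (100 over the square root of the reads) were taken. Intervals of this kind cover counting error only.

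In R 4.3.3, limma 3.58.1 with an intensity trend was fitted to log2(RPKM + 1) of the 12448 genes that reached an RPKM of 1 in 2 or more of the 5 libraries, with two-sided p-values and Benjamini-Hochberg adjustment over all of them. A pseudocount of 1 understates changes of low genes. The script was tested on simulated data. Named beside the 9 subunits were all other subunits of the 2 complexes and, of each related list, members past the threshold or else the 4 with the largest absolute fold change. For likeness, the rule took the 3 nearest named genes to the subunits with the highest and the lowest fold change. Other related genes named outside these rules, some only for the authors' FDR, and SMIM11A's values, were picked with their values in view. The fit was repeated with pseudocounts of 0.1 and 0.5, without a filter, with a mean RPKM of at least 5, quantile normalization, a trimmed-mean factor, removal of a loess trend over log2 length (span 0.5), limma without trend or with library weights, limma voom on recovered reads, the replicate number as a block, and each library left out. Figures used Python 3.11.15 and matplotlib 3.10.9.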

Additional observations from a re-analysis of the deposited data

How the results depend on the processing

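With all 5 libraries limma called 0 genes at an adjusted p under 0.05, and 4348 at an unadjusted p under 0.05; limma voom on recovered reads also called 0. Without any filter on low values 36 of 27607 genes were called. Leaving out 1 library at a time gave 0 to 5436 genes and 0 to 5 of the 9 subunits called. The highest counts came without low-performing pool 1, which leaves 1 low-performing pool that is assumed to vary like the others. The 5 subunits were then DCTN3, DCTN4, DCTN6, DYNLL1 and DYNLRB1. Labels share replicate numbers, with nothing to say that a number marks a shared batch. Deviations from group means of same-numbered pools correlated at -0.48 and -0.26. Deviations of the 2 low-performing pools mirror each other, so with those 2 pools swapped the values were 0.48 and 0.26. These correlations therefore cannot show whether a number marks a shared batch. With the replicate number as a block 833 genes (6.69%) and 3 subunits (DCTN3, DCTN6 and DYNLRB1) were called. The median fold change of the subunits was 0.81 with a mean RPKM of at least 5, where DCTN2 and DYNC1H1 drop out, and 0.23 to 0.51 with 1 library left out.

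Of 142 subunit fold changes under the alternatives, 132 kept their direction and side of the threshold, 8 passed it, and 2 turned: DCTN1 (0.060) and DYNC1H1 (0.079), both with the length trend removed. With that trend removed DYNC1I2 (0.081), DYNC1LI2 (0.046), ACTR1B (0.032), CAPZB (0.068) and DNAH11 (0.11) also turned. DYNC1LI2 turned to 0.0029 with the trimmed-mean factor, and ranged from -0.16 to 0.10 with 1 library left out, turning without high-performing pool 1 and without low-performing pool 2. MAPRE3 ranged from -0.92 to 0.051, turning without low-performing pool 2. With quantile normalization DYNC1LI1 (-0.049) and DYNLL2 (-0.15) turned. The causes were not tested. With 3 pools against 2, an exact permutation test cannot give a p under 0.1.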
